A study of Mus musculus with 6 samples.

Results

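The genes described here are 9 components and targets of the Notch pathway (Notch1, Notch2, Notch3, Rfng, Lfng, Rbpj, Dtx1, Numb and Hes1) and Ptcra, the gene of the alpha chain of the pre-T cell receptor. They are 10 of the 8511 genes that the arrays named with 1 symbol, and every probe set annotated to them was taken, 26 of the 25470 probe sets used. The genes were chosen by their transgenic over wild-type ratios in these same arrays, so those ratios are a description without a test. The transgenic samples were CD4+CD8+ double-positive thymocytes of mice carrying a Sox13 transgene, on a C57BL/6 background and 6 weeks old. The samples they were set against came from wild-type B6 littermates of the same age. All mice were female, and each sort pooled the thymocytes of at least 2 mice. Experiment 1 was run on the Affymetrix arrays Mu11K A and Mu11K B, whose probe sets differ, and experiment 2 on MG-U74Av2, with 1 transgenic and 1 wild-type sample on each array type. The Mu11K A and Mu11K B samples of a genotype are described together as its sample of experiment 1. The promoter that drives the transgene and the number of founder lines were not stated in the labels or series text.

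Notch receptors are cut by proteases after ligand binding, and their intracellular part enters the nucleus, joins the DNA-binding protein RBPJ and switches on targets such as Hes1. In the thymus this signal commits progenitors to the T cell lineage and carries them through the double-negative stages, where cells carry neither CD4 nor CD8. Ptcra is made at those stages, its product pairs with a newly rearranged T cell receptor beta chain, and signals of this pre-T cell receptor lead to the double-positive stage, at which Notch1 and Ptcra transcripts normally decline.

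Taken by gene, 4 members were higher in the transgenic sample of both experiments. The sequences before their annotated transcript starts are shown to compare their proximal promoters. They are the 250 bases before the start, from RefSeq on GRCm38.p6, with matches to TGGGAA (the core of the RBPJ site) and CAGNTG (an E-box bound by E proteins) in capitals.
Dtx1 (chr5:120711670-120711919, minus strand): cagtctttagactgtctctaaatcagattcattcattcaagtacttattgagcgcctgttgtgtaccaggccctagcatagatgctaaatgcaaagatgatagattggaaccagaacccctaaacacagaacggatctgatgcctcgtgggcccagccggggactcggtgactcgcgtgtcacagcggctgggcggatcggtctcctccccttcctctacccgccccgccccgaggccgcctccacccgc
Notch1 (chr2:26503823-26504072, minus strand): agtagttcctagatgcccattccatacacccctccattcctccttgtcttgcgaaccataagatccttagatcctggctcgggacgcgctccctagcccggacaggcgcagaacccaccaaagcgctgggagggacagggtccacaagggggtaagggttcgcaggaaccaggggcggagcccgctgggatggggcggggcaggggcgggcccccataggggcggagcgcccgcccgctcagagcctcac
Notch3 (chr17:32166891-32167140, minus strand): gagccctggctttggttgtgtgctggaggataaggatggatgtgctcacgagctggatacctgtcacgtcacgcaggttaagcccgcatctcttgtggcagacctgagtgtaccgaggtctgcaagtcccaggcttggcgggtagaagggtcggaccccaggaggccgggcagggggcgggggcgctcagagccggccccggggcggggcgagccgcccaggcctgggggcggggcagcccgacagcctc
Ptcra (chr17:46763713-46763962, minus strand): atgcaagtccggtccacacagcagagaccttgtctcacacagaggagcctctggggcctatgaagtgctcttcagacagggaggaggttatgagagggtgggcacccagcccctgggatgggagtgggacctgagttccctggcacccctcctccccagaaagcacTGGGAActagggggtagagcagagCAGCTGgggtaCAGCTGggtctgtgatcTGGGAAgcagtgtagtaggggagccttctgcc

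In this window Ptcra held 2 RBPJ cores, which began 84 and 32 bases before the start, and 2 E-boxes between them, which began 60 and 49 bases before it. Dtx1, Notch1 and Notch3 held neither motif there. Promoter entries were matched for 9 of the 10 genes, in 12 windows. Of these windows 4 held an RBPJ core (those of Ptcra, Lfng and both starts of Rbpj) and 5 held an E-box, while 0 held AACAAT, a SOX motif. The 2 Rbpj windows overlap, and the only core of the second is a site that the first holds too. By gene, 3 of the 9 held an RBPJ core and 5 an E-box. Over all 32851 promoter windows of this length, both strands searched, 21.6% held TGGGAA, 44.8% held CAGNTG and 9.42% held AACAAT. The E-box and RBPJ letters did not overlap in any of the 12 windows. The Ptcra window was 60.4% G and C and that of Dtx1 56.4%, against 66.0% for Notch1, 68.8% for Notch3 and a median of 52.4% over all windows. A match is a string of letters and does not show that a factor binds.

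**Figure D1:**
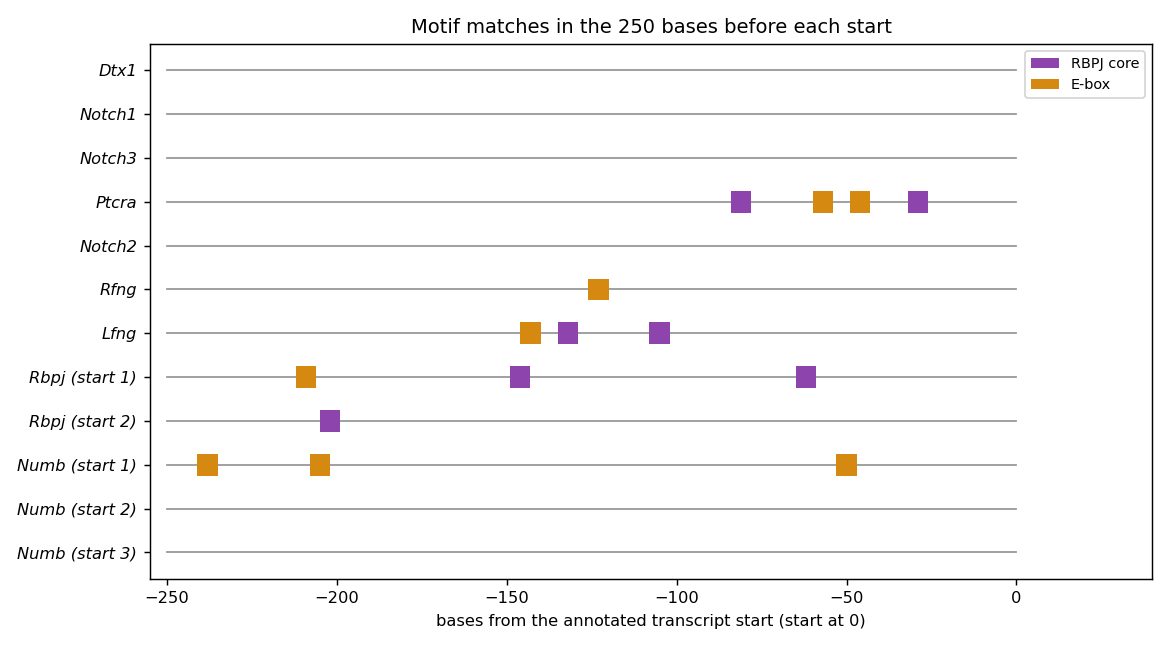
Positions of TGGGAA (RBPJ core, purple) and CAGNTG (E-box, orange) in the 250 bases before each annotated start of 9 genes, with the start at 0 on the x axis and 1 line per start. Ptcra has 2 RBPJ cores on either side of 2 E-boxes, and Dtx1, Notch1, Notch3 and Notch2 have neither motif.

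Levels below are intensities of a probe set, scaled so that the trimmed mean of each array was 500, and a floor of 100 replaced anything dimmer before transgenic was divided by wild type and log2 taken. A ratio with 1 side at the floor gives a lower bound. Levels of different probe sets cannot be set against each other, since probes differ in how well they bind. In bulk RNA of a sort, fewer cells of a type and less RNA per cell cannot be told apart.

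Sox13 read 5951 in the transgenic and 27.4 in the wild-type sample of experiment 1. In experiment 2 it read 3832 in the transgenic and 599.6 in the wild-type sample. The latter is above the floor, and whether that probe set reads Sox13 that does not come from the transgene was not tested. Sox13 was thus far higher in the transgenic sample on Mu11K A and on MG-U74Av2. Mu11K B had no probe set annotated to Sox13 alone, so its samples have no such reading.

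Dtx1 was the member with the largest difference, followed in experiment 1 by Rfng, Notch1, Ptcra and Notch3. Dtx1, Notch1, Notch3 and Ptcra were higher in the transgenic sample of both experiments at the gene level. The ratio was larger in experiment 1 for each. In experiment 2 Notch1 was higher on the dimmer of its 2 probe sets only. Notch2, Rbpj, Numb and Hes1 differed between 1.05-fold and 1.27-fold at the gene level in the experiments that measured them above the floor. Rfng was higher in experiment 1 alone, and Lfng had no level above the floor. The plot of member levels shows each probe set.

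**Figure D2:**
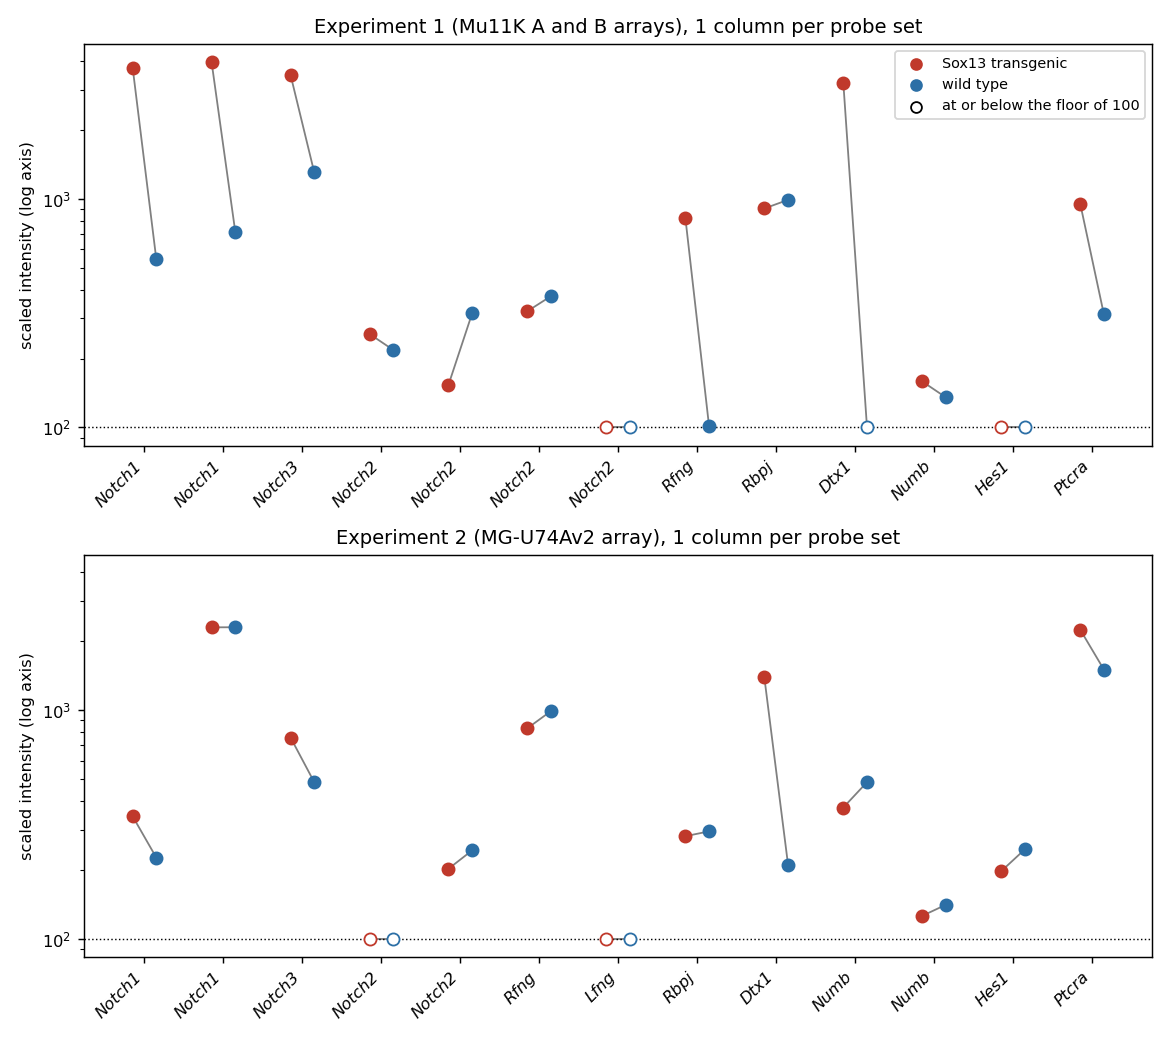
Scaled intensity on a log axis of every member probe set, with the Sox13 transgenic sample (red) to the left of the wild-type sample (blue), in experiment 1 (top) and experiment 2 (bottom). Open points lie at or below the floor of 100 and are drawn at it. The Dtx1 pair is the widest on either panel, and the brighter Notch1 pair of experiment 2 is level, at 2299 and 2302.

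Among the receptors, Notch1, the receptor that thymocyte progenitors depend on, was read by 2 probe sets in each experiment. On Mu11K A its intensity was 3957 in the transgenic and 716 in the wild-type sample, and on Mu11K B it was 3747 in the transgenic and 543 in the wild-type sample. The 2 arrays thus gave similar ratios from separate probe sets, 5.53-fold and 6.90-fold higher. In experiment 2 the brighter probe set read 2299 in the transgenic and 2302 in the wild-type sample, and the dimmer one 343 in the transgenic and 226 in the wild-type sample, or 1.52-fold higher. The dimmer probe set carries the suffix that Affymetrix gave to sets chosen under relaxed rules. By gene, Notch1 had log2 ratios of 2.63 in experiment 1 and 0.30 in experiment 2, and the ratio of experiment 2 was -0.00 with the brighter probe set alone. The difference of Notch1 in experiment 2 therefore rests on the dimmer probe set.

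Notch3, a receptor of immature thymocytes that is itself a Notch target, had an intensity of 3479 in the transgenic and 1304 in the wild-type sample of experiment 1. In experiment 2 it was 758 in the transgenic and 483 in the wild-type sample. The transgenic sample was thus 2.67-fold and 1.57-fold higher, both from probe sets designed on the same transcript entry.

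Notch2, which is better known for its role in B cells, did not show this pattern. Of its 4 probe sets in experiment 1, those above the floor read 154, 322 and 256 in the transgenic sample, against 316, 375 and 218 in the wild-type sample. The first 2 of these share 1 target sequence and had log2 ratios of -1.04 and -0.22, while the third, on the other Mu11K array, had 0.23. In experiment 2 the probe set above the floor read 202 in the transgenic and 243 in the wild-type sample. The gene-level log2 ratios were -0.34 and -0.27, and that of experiment 1 was 0.03 under median scaling. The probe sets of Notch2 therefore disagree in sign and give no common direction.

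Fringe enzymes add sugar to Notch receptors and so change which ligands they answer to. Rfng, radical fringe, read 824 in the transgenic and 101 in the wild-type sample of experiment 1, which is 8.15-fold higher and ranked 6 of 3882 probe sets above the floor on that array. In experiment 2 it read 832 in the transgenic and 991 in the wild-type sample, 1.19-fold lower. The wild-type value of experiment 1 lay just above the floor, and with a floor of 200 the log2 ratio was 2.04 instead of 3.03. The 2 probe sets were designed on different transcript entries. Lfng, lunatic fringe, was read in experiment 2 only, at 26.8 in the transgenic and 20.9 in the wild-type sample, both under the floor.

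Rbpj, the DNA-binding partner of all Notch receptors, was nearly level. It read 907 in the transgenic and 989 in the wild-type sample of experiment 1, and 281 in the transgenic and 295 in the wild-type sample of experiment 2. Its log2 ratios of -0.12 and -0.07 were small beside the spread of all genes, whose SD was 0.76 in experiment 1 and 0.33 in experiment 2, and the first was 0.33 under median scaling. Hes1, a repressor and a direct Notch target, was under the floor in experiment 1, at 66.5 in the transgenic and -14.1 in the wild-type sample. In experiment 2 it read 197 in the transgenic and 246 in the wild-type sample, 1.25-fold lower. With a floor of 50 its log2 ratio in experiment 1 was at least 0.41, so its direction there depends on the floor.

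Dtx1 encodes Deltex, a ubiquitin ligase that binds the inner part of Notch and is used as a marker of Notch signaling in thymocytes. It read 3221 in the transgenic sample of experiment 1, against 65.6 in the wild type, which is under the floor. In experiment 2 it read 1388 in the transgenic and 211 in the wild-type sample. The transgenic sample was at least 32.2-fold and 6.59-fold higher, and these ratios ranked 2 of 3882 probe sets on Mu11K A and 3 of 7109 on MG-U74Av2. The wild-type level thus lay near the floor in both experiments. Because Dtx1 passed the floor in experiment 1 only through the transgenic sample, it could only appear as higher there.

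Numb, an adaptor that opposes Notch1, was close to level. Its probe set of experiment 1 read 159 in the transgenic and 135 in the wild-type sample, and those of experiment 2 read 374 and 126 in the transgenic sample, against 483 and 141 in the wild-type sample. Its log2 ratios, 0.23 in experiment 1 and -0.26 in experiment 2, were of opposite sign.

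Ptcra, the pre-T cell receptor alpha chain, read 953 in the transgenic and 312 in the wild-type sample of experiment 1. In experiment 2 it read 2247 in the transgenic and 1503 in the wild-type sample. The transgenic sample was 3.05-fold and 1.49-fold higher, at ranks 49 of 3882 and 304 of 7109. Both probe sets were designed on the same transcript entry, and all 4 samples were well above the floor.

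Taken by gene, 8 of the 9 members on the Mu11K arrays and 9 of 10 on MG-U74Av2 had a probe set above the floor on at least 1 array of the pair. Of those, 5 were 2-fold or more higher in the transgenic sample of experiment 1 and 0 were 2-fold lower, where 5.25% of all 3927 genes were higher and 11.7% lower. In experiment 2 the counts were 1 and 0, where 0.855% of all 5377 genes were higher and 0.446% lower. The measured members had median log2 ratios of 1.51 and -0.07 in experiments 1 and 2, beside -0.07 and -0.03 over all genes. Since this contrast chose the members, these shares are no evidence about the group.

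Over the 8 members measured in both experiments, 4 had positive log2 ratios in both, 2 negative in both and 2 opposite signs. A positive ratio in both was found for 23.9% of 3237 genes. Dtx1 was 2-fold or more higher in both, as were 0.432% of all genes, and Dtx1 and Notch3 were 1.5-fold or more higher in both, as were 1.27% of all genes, with Ptcra just outside at 1.49-fold in experiment 2. The mean log2 ratio was 3.86 ± 1.62 for Dtx1, a value that depends on the floor (4.17 with a floor of 50 and 3.36 with a floor of 200), since its ratio of experiment 1 is a lower bound. It was 1.46 ± 1.65 for Notch1, 1.09 ± 0.73 for Ptcra and 1.03 ± 0.54 for Notch3 (SD, n = 2 experiments). For Rfng it was 1.39 ± 2.32, and for Notch1 and Rfng the spread between experiments exceeded the mean. The means of Notch2, Rbpj and Numb were -0.31 ± 0.05, -0.10 ± 0.04 and -0.02 ± 0.35 (SD, n = 2 experiments), and those of Rbpj and Numb turned to 0.16 and 0.18 under median scaling. Numb also turned under quantile and loess scaling.

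**Figure D3:**
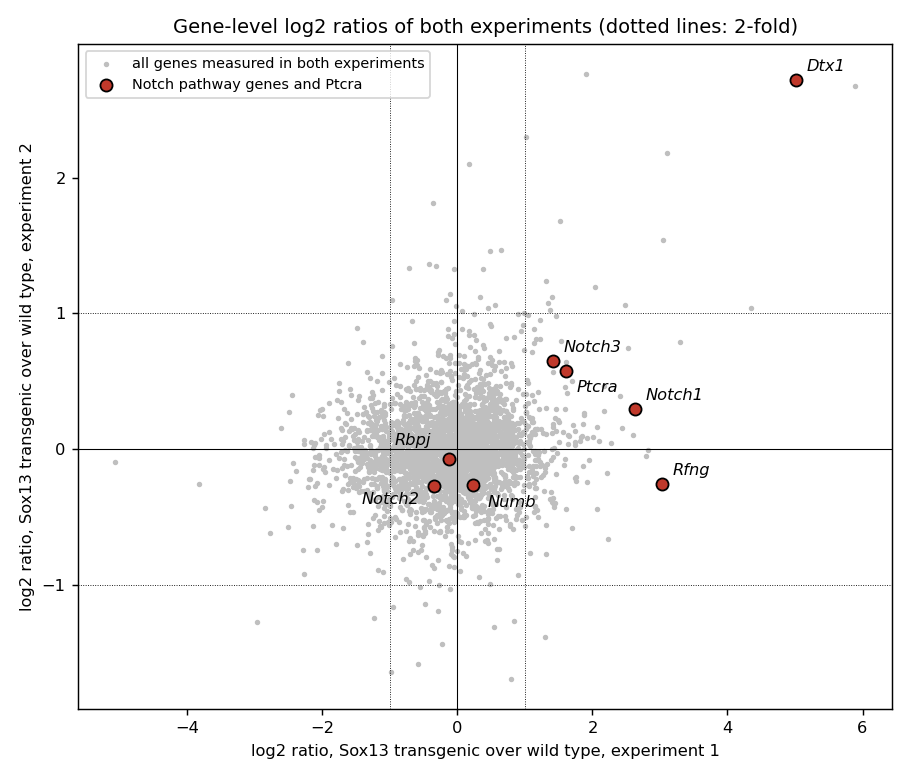
Gene-level log2 ratios of Sox13 transgenic over wild type in experiment 1 (x axis) and experiment 2 (y axis), with all 3237 genes measured in both in grey and the 8 members measured in both in red. Dtx1 lies to the upper right at 5.01, a lower bound, and 2.72, Notch3, Ptcra and Notch1 lie to the right and above 0, and Rfng lies at 3.03 and -0.25.

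How far the experiments gave alike values can be read where both arrays carried probe sets designed on the same transcript entry, which was so for 8 members. The log2 ratios were at least 5.01 and 2.72 for Dtx1, 1.61 and 0.58 for Ptcra, and 1.42 and 0.65 for Notch3, each given for experiment 1 and then experiment 2. For Notch1 they were 2.79 and -0.00, so the shared entry alone did not give alike ratios. They were -0.12 and -0.07 for Rbpj, and of opposite sign for Numb, at 0.23 and -0.16. On the shared entry Notch2 was under the floor in both experiments, and Hes1 in experiment 1. Of 183 genes that were 2-fold or more higher in experiment 1 and measured in both, 107 were above 0 in experiment 2, or 58.5%, and 14 were 2-fold or more higher there.

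The genes nearest to a member in the plane of both log2 ratios were sought among 3236 others, over 2 experiments. These ratios also chose the members, and how near genes lie to each other in general was not measured. Nearness is therefore a description and no evidence of a link. Nearest to Dtx1 by Euclidean distance was Sox13, the gene that the transgene carries, followed by Pdlim4 and Plac8. The ratios of Dtx1 and Sox13 in experiment 1 are both lower bounds, so their distance depends on the floor. It was 0.89 log2 units, and 1.28 and 0.89 with floors of 50 and 200, chosen after seeing the data, and Sox13 was nearest under each of the 3 floors. Ptcra lay 0.06 from Irf7, 0.12 from H2-D1 and 0.12 from H2-Ab1. Notch3 lay 0.08 from H2-Q1, 0.19 from Phlda1 and 0.20 from Irf7, and Notch1 lay 0.19 from Ass1, 0.23 from Ifi209 and 0.24 from Rxra. Of these neighbours, H2-D1, H2-Ab1 and H2-Q1 are genes of the major histocompatibility complex, and Irf7 encodes an interferon regulatory factor.

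Other genes of the pathway were tested in both experiments, and none passed as higher or lower. Of 90 other genes of Notch signaling, the pre-T cell receptor and Ptcra regulation, 62 were on the arrays and 42 were measured in both experiments. In limma with Benjamini-Hochberg adjustment over 3237 genes, 0 of the 42 were higher and 0 lower, where 0.154% of all genes passed as higher and 0% as lower. At an unadjusted p under 0.05, limma gave 1 higher and 5 lower, where 2.5% of all genes were higher and 3.92% lower. Over the other pathway genes with a ratio, 46 in experiment 1 and 53 in experiment 2, the median log2 ratios were 0.04 and -0.08. In experiment 1, 7 of 46 (15.2%) were 2-fold or more higher and 6 (13.0%) lower, where 5.25% of all genes were higher and 11.7% lower. In experiment 2 these counts were 0 and 0 of 53, where 0.855% of all genes were higher and 0.446% lower.

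**Figure D4:**
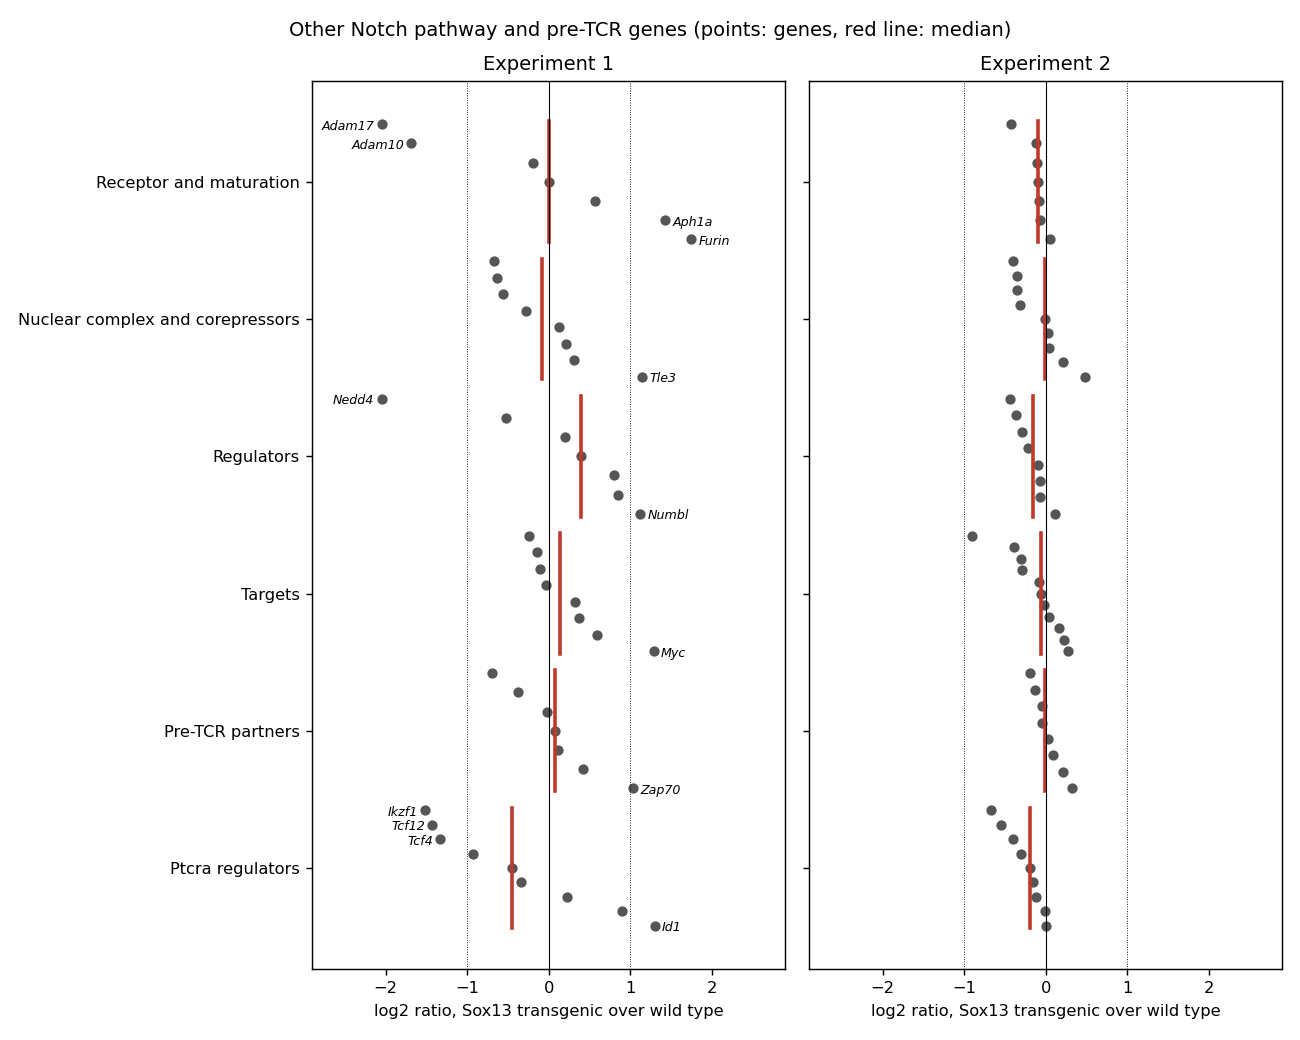
Log2 ratios of Sox13 transgenic over wild type for other Notch pathway and pre-T cell receptor genes, by role, in experiment 1 (left) and experiment 2 (right). Each point is a gene, red lines are medians and dotted lines mark 2-fold. Genes beyond 2-fold, 7 higher and 6 lower, appear in experiment 1 and none in experiment 2.

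Thymic Notch ligands come mainly from the epithelium, and the ligand genes Dll1 and Jag2 were under the floor on every array that carried them. The ligand genes Dll3, Dll4 and Jag1 had no probe set annotated to them alone, so they were not measured. Dlk1, which encodes a Delta-like protein, was under the floor in experiment 1 and read 221 in the transgenic and 195 in the wild-type sample of experiment 2. Of 6 tested genes of receptor maturation, 0 passed. Furin, the protease that first cuts the Notch precursor, read 981 in the transgenic and 293 in the wild-type sample of experiment 1, and 828 in the transgenic and 799 in the wild-type sample of experiment 2. Its mean log2 ratio was 0.90 (limma adjusted p = 0.774). The ligand-triggered proteases had the opposite sign. Adam10 read 260 and 128 in the transgenic sample of experiment 1 over 2 probe sets, against 763 and 449.7 in the wild type, with log2 ratios of -1.68 in experiment 1 and -0.07 in experiment 2 (limma adjusted p = 0.774). Adam17 was at least 4.14-fold lower in experiment 1, at 73.4 in the transgenic and 414 in the wild-type sample, and read 68.2 in the transgenic and 108 in the wild-type sample of experiment 2 (limma adjusted p = 0.769). Aph1a, a subunit of the gamma-secretase that makes the final cut, had log2 ratios of 1.43 and -0.42, while the catalytic subunit gene Psen2 had 0.01 and -0.10. Mfng, the third fringe gene, had 0.57 and -0.11. Furin and Adam10 thus differed more in experiment 1 than in experiment 2, and the value of Adam17 in the transgenic sample was under the floor in both.

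Of 8 tested genes of the nuclear complex and corepressors, 0 passed. The median log2 ratios were -0.08 over 8 genes in experiment 1 and -0.01 over 9 genes in experiment 2. The corepressor gene Tle3 had the widest difference, with 988 in the transgenic and 446 in the wild-type sample on 1 probe set of experiment 1, and 1371 in the transgenic and 1748 in the wild-type sample of experiment 2. Among the regulators 0 of 6 passed. Nedd4, a ubiquitin ligase, read 105 in the transgenic and 437 in the wild-type sample of experiment 1, with log2 ratios of -2.05 and -0.44 (limma adjusted p = 0.648). Numbl, a relative of Numb, was read on Mu11K B only, where it was at least 2.18-fold higher. The other Deltex gene on the arrays, Dtx2, read 593 in the transgenic and 517 in the wild-type sample of experiment 1, and 736 in the transgenic and 953 in the wild-type sample of experiment 2. Its log2 ratios of 0.20 and -0.37 lay far below those of Dtx1. Itch and Fbxw7, ubiquitin ligases of the pathway, were read in experiment 2 only, with log2 ratios of -0.30 and -0.22.

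Of 7 other tested Notch targets, 0 passed in limma. Myc was at least 2.44-fold higher in experiment 1, at 244 in the transgenic and 77.9 in the wild-type sample, and 1.23-fold lower in experiment 2, at 115 in the transgenic and 142 in the wild-type sample. Gata3, a transcription factor of T cell commitment, had log2 ratios of 0.32 and -0.06. Hey1 read 86.3 in the transgenic and 131 in the wild-type sample of experiment 2. Hes5 read 37.8 in the transgenic and 119 in the wild-type sample of experiment 1, and was under the floor in experiment 2. Il2ra, which encodes CD25, was under the floor on every array. Bcl2, a survival gene named after its values were seen, was higher in the transgenic sample of both experiments, with log2 ratios of 0.37 and 0.16 (limma adjusted p = 0.914).

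Of 7 tested partners of the Ptcra product and kinases of its signal, 0 passed. The median log2 ratios were 0.07 over 7 genes in experiment 1 and -0.01 over 8 genes in experiment 2. The CD3 genes had log2 ratios of 0.42 and -0.05 for Cd3e, 0.07 and 0.09 for Cd3d, -0.37 and 0.20 for Cd3g, and 0.11 and -0.13 for Cd247. Zap70, a kinase of the receptor, read 5309 in the transgenic and 2589 in the wild-type sample of experiment 1, and its 3 probe sets of experiment 2 had a mean log2 ratio of -0.19. At the gene level the CD3 genes thus lay within 0.42 log2 units of 0 in both experiments. The 2 Cd247 probe sets of experiment 1 disagreed in sign, at 0.46 for the brighter and -0.25 for the one near the floor.

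Among regulators of Ptcra, 0 of 8 tested passed in limma, and the E protein genes had opposite signs in experiment 1. Tcf12, which encodes HEB, read 825 in the transgenic and 2223 in the wild-type sample of experiment 1, and 6472 in the transgenic and 8007 in the wild-type sample of experiment 2 (mean log2 ratio -0.87, limma adjusted p = 0.769). Tcf4 was at least 2.52-fold and 1.47-fold lower (mean log2 ratio -0.94, limma adjusted p = 0.723). Tcf3, which encodes E2A, had log2 ratios of 0.90 and -0.12. Of the E protein inhibitors, Id2 had -0.34 and -0.20, Id3 had 0.22 and -0.41, and Id1 was at least 2.46-fold higher on Mu11K B and under the floor on the other arrays. Ikzf1, which encodes the repressor Ikaros, read 561 in the transgenic and 1600 in the wild-type sample of experiment 1, and its 2 probe sets of experiment 2 had log2 ratios of -0.38 and 0.37.

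Because Notch1, Notch3, Dtx1 and Ptcra are high in double-negative progenitors, markers of that stage and of others were read in the same samples. Of 10 double-negative markers, Il2ra, Cd44 and Hhex were under the floor in all samples. The others did not share 1 direction. Kit read 38.8 in the transgenic and 116 in the wild-type sample of experiment 1, and Cd34 read 109 in the transgenic and 182 in the wild-type sample. Hes5 was lower too, at 37.8 in the transgenic and 119 in the wild-type sample of experiment 1. So was Spi1, at 91.4 in the transgenic and 159.5 in the wild-type sample of experiment 2. Lyl1 read 110 and 162 in the transgenic sample of experiment 1, against 129 and 85.3 in the wild-type sample, and Lmo2 read 109 and 105 in the transgenic sample of experiment 2, against 99.6 and 81.3 in the wild-type sample. The summed level of the list, with each probe set at no less than the floor, was 1181 in the transgenic and 1246 in the wild-type sample over 11 probe sets of experiment 1. In experiment 2 it was 1514 in the transgenic and 1560 in the wild-type sample over 15 probe sets. The floor alone gives 1100 and 1500 of these sums, so they leave little room for a difference, and they show only that the progenitor markers were at or near the floor in both genotypes. Their part in the member ratios was not tested. This list shares Il2ra, Hes5 and Spi1 with the pathway lists.

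**Figure D5:**
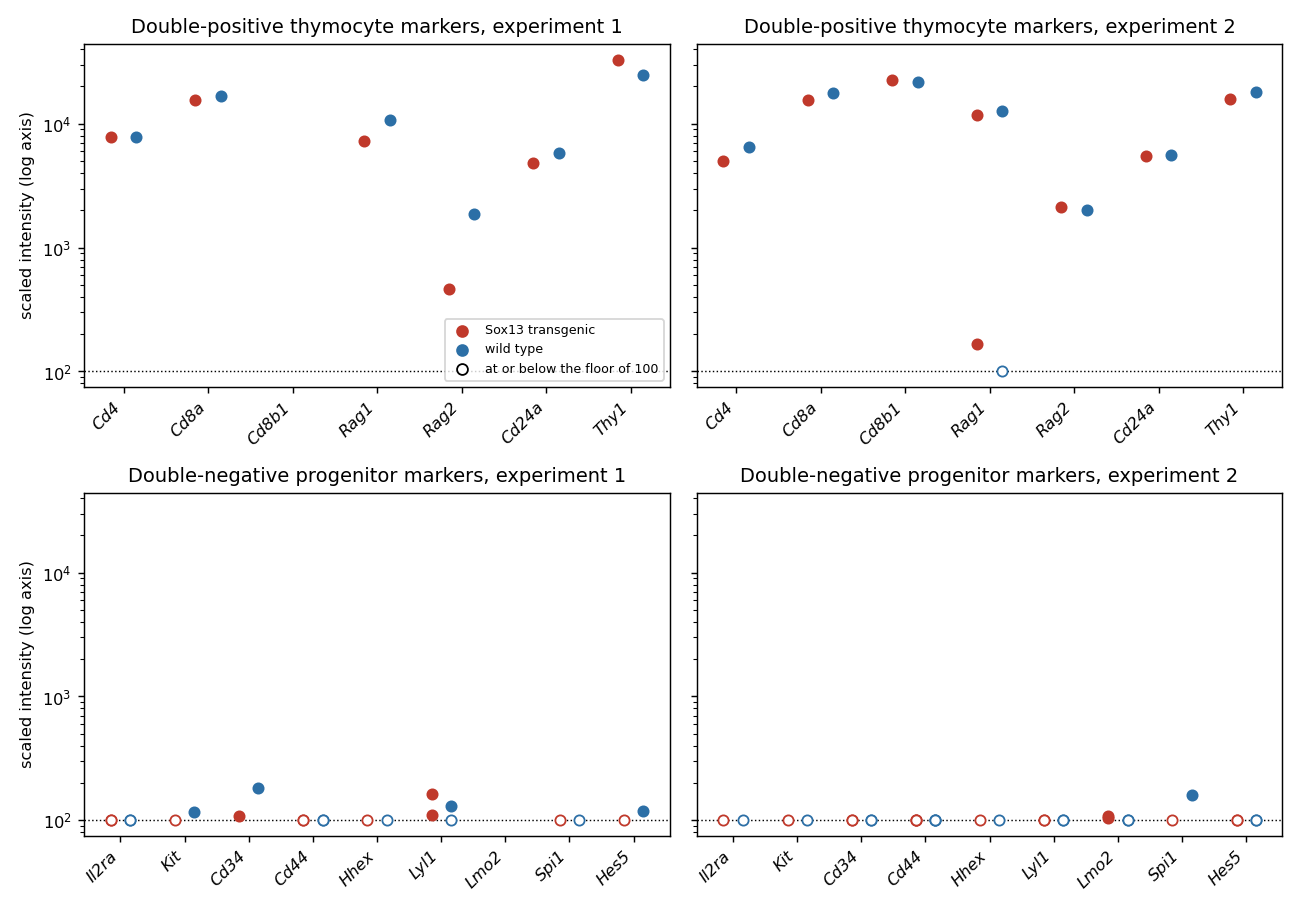
Scaled intensity on a log axis of double-positive (top) and double-negative (bottom) markers in experiment 1 (left) and experiment 2 (right), with Sox13 transgenic points (red) to the left of wild-type points (blue) and 1 point per probe set. Open points lie at or below the floor of 100. Cd4, Cd8a and Thy1 lie far above the floor in all samples, and the double-negative markers lie at or near the floor.

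Markers of the labelled stage were bright in all samples. Cd4 read 7854 in the transgenic and 7876 in the wild-type sample of experiment 1, and 5040 in the transgenic and 6496 in the wild-type sample of experiment 2. The double-positive list summed to 69091 in the transgenic and 68004 in the wild-type sample over 6 probe sets of experiment 1, and to 78843 in the transgenic and 84607 in the wild-type sample over 8 probe sets of experiment 2. Rag2, a recombinase gene, was an exception, at 460 in the transgenic and 1871 in the wild-type sample of experiment 1.

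Summed levels of some other cell types' markers were higher in the transgenic samples of both experiments. B cell markers summed to 2571 in the transgenic and 1874 in the wild-type sample of experiment 1, and to 2044 in the transgenic and 1667 in the wild-type sample of experiment 2. Of their probe sets, 4 in the transgenic and 3 in the wild-type sample of 8 in experiment 1 were above the floor, and 7 in the transgenic and 3 in the wild-type sample of 9 in experiment 2. Without Blk, a kinase gene that was higher in both experiments, the B cell sums were 1622 in the transgenic and 1520 in the wild-type sample of experiment 1, and 1569 in the transgenic and 1467 in the wild-type sample of experiment 2. Ms4a1 had log2 ratios of -0.14 and 0.83, Cd79b of 0.58 and -0.23, and Pax5 of -0.14 in experiment 2. Cd22, a defining B cell gene, was under the floor on every array that carried it, and Pax5 was under it in experiment 1. Erythroid markers, through the globin genes, summed to 3263 in the transgenic and 789 in the wild-type sample of experiment 1, and to 2234 in the transgenic and 647 in the wild-type sample of experiment 2. In limma 2 of 3 tested erythroid genes passed, Hba-a1 (mean log2 ratio 2.33, adjusted p = 0.0154) and Hbb-b2 (2.29, adjusted p = 0.0399), both higher in the transgenic samples. Both calls were lost with a floor of 50, without a filter and with no replicate block, and that of Hbb-b2 also with a floor of 200 and with the brightest probe set. Over the alternatives the limma adjusted p ranged from 1.89e-07 to 0.999 for Hba-a1 and from 7.46e-07 to 0.999 for Hbb-b2. The erythroid list was chosen with earlier results of these data known, so these p-values are no independent test. Gata1, the third tested gene, had log2 ratios of -0.52 and -0.07, with every transgenic value under the floor. In experiment 1 the 2 probe sets of Hba-a1 differed. They read 299.4 and 1862 in the transgenic sample, against 305.5 and 131 in the wild-type sample. Alas2, of heme synthesis, was under the floor on every array that carried it. The gamma-delta list, which holds Sox13 itself, summed to 7728 in the transgenic and 851 in the wild-type sample of experiment 1, and to 5098 in the transgenic and 1200 in the wild-type sample of experiment 2. Without Sox13 it summed to 1777 in the transgenic and 751 in the wild-type sample of experiment 1, and to 1266 in the transgenic and 600 in the wild-type sample of experiment 2. Besides Sox13, its genes above the floor were Blk, which the B cell list holds too, and Trgv1, a gamma chain segment gene that read 492 in the transgenic and 89.9 in the wild-type sample of experiment 2. Zbtb16 was under the floor on every array that carried it. Both sums with a gene left out were chosen after seeing the data. Myeloid markers summed to 2645 in the transgenic and 3066 in the wild-type sample of experiment 1, and to 1359 in the transgenic and 1323 in the wild-type sample of experiment 2. Within that list Lyz2 was at least 2.55-fold higher and Csf1r 1.86-fold lower in the transgenic sample of experiment 2, each on 1 probe set. The other Lyz2 probe set there was under the floor, and in experiment 1 Lyz2 read 1627 in the transgenic and 2024 in the wild-type sample. The other Csf1r probe set read 93.4 in the transgenic and 64.0 in the wild-type sample of experiment 2, both under the floor. Stroma and epithelium markers summed to 1017 in the transgenic and 1032 in the wild-type sample of experiment 1, and to 1318 in the transgenic and 1324 in the wild-type sample of experiment 2. The part of these cell types in the member ratios was not tested.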

How the data were processed

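RNA of sorted double-positive thymocytes was measured on 6 Affymetrix arrays, 3 per genotype. The authors deposited 1 linear intensity for each probe set. Microarray Analysis Software versions 4 and 5 are named in the series text and MAS5 in the submitters' processing notes, and per the labels no version is given per array. The Mu11K values include intensities below 0, from 17.3% to 29.2% of an array, and the MG-U74Av2 values none. The number of arrays limits the precision.

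Controls (55 probe sets per Mu11K array, 66 on MG-U74Av2) and 21 Mu11K A probe sets without a wild-type value were dropped. Intensities were scaled per array so that the mean after trimming 2% at each end was 500, raised to a floor of 100 where dimmer, and log2 transformed. The share above the floor was 46.9% to 57.4% per array. Genes were named from the platform annotation, through probe sets with 1 symbol (5530, 2001 and 10833 on Mu11K A, Mu11K B and MG-U74Av2), where 197, 27 and 396 had several and 781, 4512 and 1193 none. RefSeq changed 0 symbols. Within an experiment a gene's value was the mean log2 ratio of those probe sets that exceeded the floor in either genotype.

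All 3237 genes measured in both experiments, members included, were fitted with limma 3.58.1 (R 4.3.3) on the 2 log2 ratios, and p-values are given for genes other than the members only: mean against 0, two-sided, adjusted by Benjamini-Hochberg, threshold 0.05. The variance prior had 12.1 degrees of freedom, so it outweighs a gene's own spread. Samples are pools, and p-values measure the spread between 2 experiments. The same fit was also run on simulated ratios with the spread of these experiments, and the outcome is not reported here. Whether both Mu11K arrays of a genotype carried the same RNA was not stated.

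The members, the pathway and marker lists (double-positive, double-negative, B cell, myeloid, erythroid, stroma and epithelium, gamma-delta) and the naming rule were chosen with earlier results of these data known. The naming rule takes all members, pathway genes past limma or 2-fold in either experiment, a canonical set, and the 3 genes nearest to each of 4 members. Alternatives covered the floor, scaling, probe set choice, filter, fold, experiment and pairing.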

Additional observations from a re-analysis of the deposited data

Results flagged for a closer look

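Rfng moved in opposite directions in the 2 experiments, higher in the transgenic sample of experiment 1, with a log2 ratio of 3.03, and lower in that of experiment 2, with -0.25. Each experiment had 1 pair of samples, so the difference between the experiments was not tested, and the 2 probe sets were designed on different transcript entries.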

How the results depend on the processing

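Of 78 mean log2 ratios of members recomputed under other settings, 64 kept their sign and stayed within the spread between experiments, as did 57 of 58 counts within 1.5 times. Values without either experiment lie within that spread by arithmetic, since only 2 experiments make it, though their sign can turn. Dtx1, Notch3, Ptcra, Rfng and Rbpj had 1 probe set per experiment, so the brightest probe set and no filter could not change them. The tally of 64 therefore does not measure how stable the ratios are. The mean of Numb stayed within that spread but turned in 4 settings, to 0.18, 0.16 and 0.18 under median, quantile and loess scaling and to 0.23 without experiment 2. At 1.5-fold, 2 members were higher in experiment 2, against 1 at 2-fold. The mean log2 ratio of Notch2 was -0.24 with a floor of 200, -0.24 with the brightest probe set, -0.20 without a filter, and -0.090, -0.13 and -0.11 under median, quantile and loess scaling. That of Rbpj was 0.16, -0.037 and -0.043 under the same 3 scalings. Rfng turned to -0.25 without experiment 1. Without either experiment in turn the log2 ratio ranged from 2.72 to 5.01 for Dtx1, 0.30 to 2.63 for Notch1, 0.65 to 1.42 for Notch3, 0.58 to 1.61 for Ptcra, -0.25 to 3.03 for Rfng, -0.34 to -0.27 for Notch2, -0.12 to -0.07 for Rbpj and -0.26 to 0.23 for Numb. Each such value has no spread of its own. Median, quantile and loess scaling raised the median log2 ratio of all genes in experiment 1 by 0.34, 0.13 and 0.10, and ratios there are relative to that shift. Other pathway genes past limma numbered 0 in each direction under every setting run, also in the fit with no replicate block, in which the experiments' levels were not paired. Over all genes, limma called 5 higher and 0 lower, against 21 and 5 under median, 12 and 3 under quantile and 13 and 2 under loess scaling, 4 and 1 with a floor of 200, 2 and 0 among genes above the floor on both arrays, 1 and 0 with the brightest probe set, and 0 and 0 with a floor of 50, without a filter and with no replicate block. Dtx1 had no experiment 1 ratio, and so no mean, with probe sets above the floor on both arrays, nor had Numb with a floor of 200. Hes1 had none in the setting reported, and with a floor of 50 its ratios were 0.41 and -0.32. Lfng was on MG-U74Av2 only. The cause of these shifts was not tested.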
